A study of Mus musculus with 12 samples.

Results

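The genes described here are 9 matricellular and matrix remodelling genes: Fn1, Thbs1, Sparc, Postn, Fbln2, Bgn, Lox, Mmp2 and Timp2. They were chosen by name, with their levels across the groups already known, from a table of 43346 gene IDs measured by RNA-seq in mouse embryonic stem cells. All 9 had reads in every library and all 9 passed the filter on low counts. Their levels and fold changes are therefore given as a description, with an error and no test. The question set for them was whether the ratio between groups is the same for every gene, as a single admixed cell type would give, or differs from gene to gene.

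The study has 4 groups with 3 libraries each. B6 is the inbred strain C57BL/6J and D2 is the inbred strain DBA/2J. B6-13D2 is the congenic strain B6.D2-(rs30079041-rs51756099)/Bakr, B6 with a chromosome 13 segment from D2. D2-13B6 is the reciprocal strain, D2 with a chromosome 13 segment from B6. The sample labels write it D2.B6-(rs29224292-rs13469455)/Bakr, while the series design text ends the segment at rs51756099. All cells of all groups grew in serum medium with the cytokine LIF, the MEK inhibitor PD0325901 and the GSK3 inhibitor CHIR99021. The protocol describes separate cultures of a single line per strain, so a strain and its line cannot be told apart. The titles speak of technical replicates, and p-values then measure only the spread between these samples. The labels give B6 replicate 3 another line name than B6 replicates 1 and 2, and for D2 the line in the titles is not the one in the cell line field. In the deposited table the column names of the 6 congenic libraries start with a digit, and those of the parental libraries do not. Anything this digit may record cannot be told apart from being congenic.

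The extracellular matrix is a meshwork of secreted proteins that surrounds cells. Matricellular proteins such as thrombospondin, SPARC and periostin are secreted into it and change how cells attach and respond to growth factors, without being its main structural parts. Fibronectin, fibulin and biglycan belong to the meshwork itself, lysyl oxidase ties its collagen and elastin together, and metalloproteinases cut it under the control of their inhibitors. Fibroblasts are known for making most of these proteins together, while mouse embryonic stem cells themselves can also make fibronectin.

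Libraries held 22184196 to 36411799 expected counts. Levels are given as CPM, counts scaled to a common library total adjusted by the TMM method. Together the 9 genes took 1.50% ± 0.0506 of the counts in B6 (SD, n = 3) and 2.10% ± 0.0698 in D2, compared with 0.710% ± 0.00417 in B6-13D2 and 1.15% ± 0.0295 in D2-13B6. For 8 of the 9 genes D2 was highest, followed by B6, D2-13B6 and B6-13D2. The exception was Postn, for which D2-13B6 stood above B6. None of the 9 genes had overlapping libraries between any 2 of the 4 groups, while 19.7% of all 17148 genes tested had none. In D2 against B6 all 9 were higher without overlap, against a background of 31.2% of all genes. All 9 were lower without overlap in B6-13D2 against B6, where the background was 35.2%, and in D2-13B6 against D2, where it was 32.2%. These counts follow from how the genes were chosen. In these bulk samples, fewer cells of a type and less RNA per cell cannot be told apart.

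**Figure D1:**
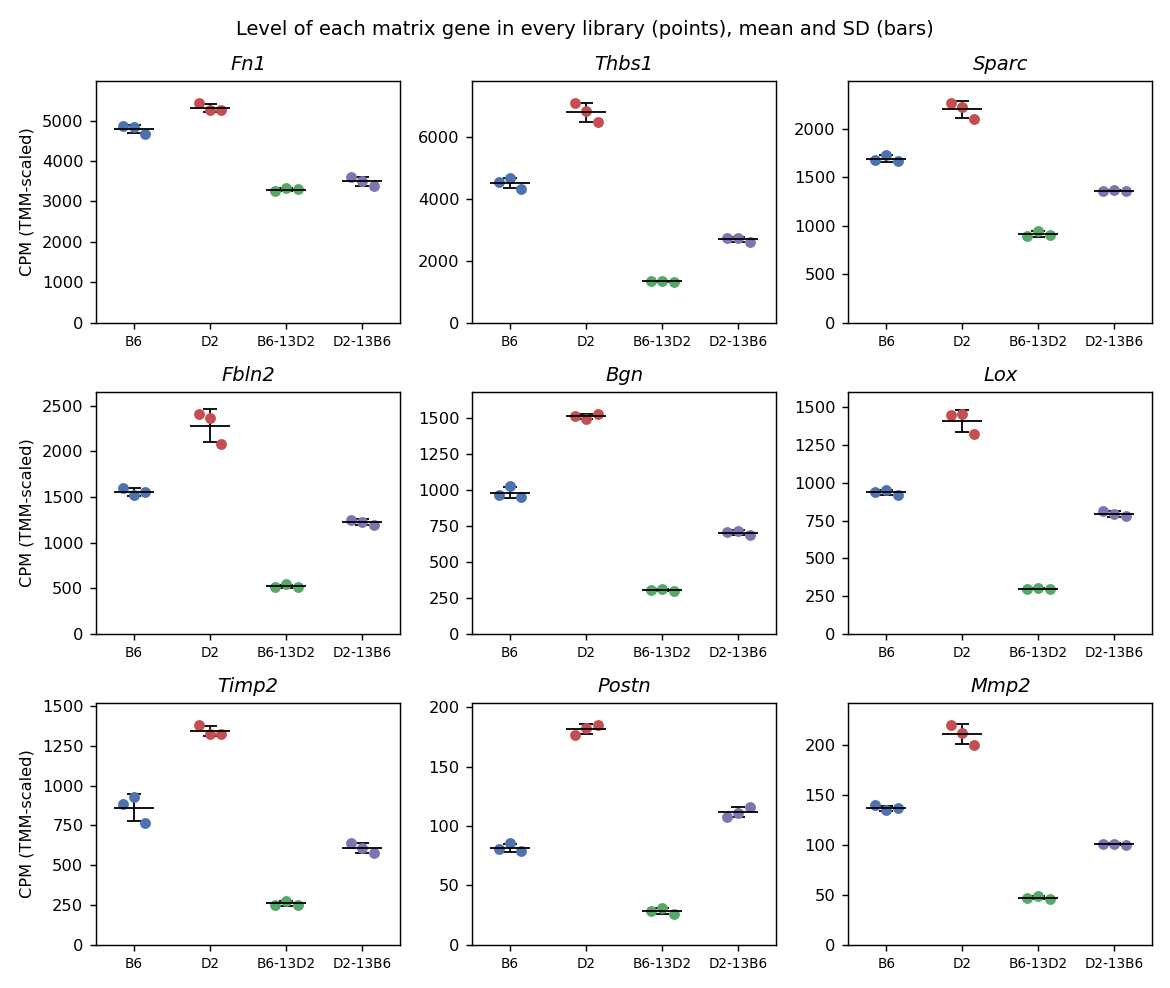
Level of each of the 9 matrix genes in CPM (vertical axes, each starting at 0) in the 12 libraries. Points are libraries, the long bar is the group mean and the error bar the SD (n = 3). No groups overlap for any gene, B6-13D2 is lowest throughout, and the step from D2 to B6-13D2 is shallow for Fn1 and Sparc.

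The sequence just before the start of transcription is shown for 4 of the genes: Bgn and Timp2, whose ratio to each other varied little, and Sparc and Postn, whose fold changes stood apart from theirs. The 250 bases before the start site come from a table of RefSeq promoters (GRCm38.p6), and the windows of 5 of the 9 genes were searched. Capitals mark matches to the searched motifs on either strand.
Bgn, chrX:73483351-73483600, plus strand: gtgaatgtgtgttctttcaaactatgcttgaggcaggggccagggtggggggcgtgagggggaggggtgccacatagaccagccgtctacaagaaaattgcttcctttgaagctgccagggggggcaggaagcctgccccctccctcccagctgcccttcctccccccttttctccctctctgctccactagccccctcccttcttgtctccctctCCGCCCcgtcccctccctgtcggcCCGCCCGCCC
Timp2, chr11:118355412-118355661, minus strand: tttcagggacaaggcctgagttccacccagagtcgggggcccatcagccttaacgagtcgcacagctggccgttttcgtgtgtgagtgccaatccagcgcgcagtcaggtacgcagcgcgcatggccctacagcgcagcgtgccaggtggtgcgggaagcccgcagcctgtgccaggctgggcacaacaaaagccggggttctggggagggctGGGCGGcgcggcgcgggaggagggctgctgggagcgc
Sparc, chr11:55420081-55420330, minus strand: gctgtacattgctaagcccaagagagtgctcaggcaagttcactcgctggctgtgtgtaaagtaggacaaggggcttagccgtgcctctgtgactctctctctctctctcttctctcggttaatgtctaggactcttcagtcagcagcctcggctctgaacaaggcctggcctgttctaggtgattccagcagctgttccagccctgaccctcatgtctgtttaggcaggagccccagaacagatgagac
Postn, start site 2, chr3:54360857-54361106, plus strand: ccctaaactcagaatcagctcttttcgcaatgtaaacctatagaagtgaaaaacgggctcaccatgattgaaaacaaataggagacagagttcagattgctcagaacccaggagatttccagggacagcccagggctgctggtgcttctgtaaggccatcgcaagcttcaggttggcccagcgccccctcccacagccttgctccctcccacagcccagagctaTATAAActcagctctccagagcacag
The motifs searched were the TATA box core TATAAA, the GC box core GGGCGG, the AP-1 site TGANTCA, the TEAD site GGAATG, the CRE TGACGTCA and the CArG box. Bgn held the GC box core 3 times on the opposite strand, where it reads CCGCCC, and the matches at 10 to 5 and at 6 to 1 bases before the start share letters. The Timp2 window held one GC box core, 37 to 32 bases before the start, and so did that of Fbln2, which is not shown, 16 to 11 bases before its start. The Postn window held the TATA box core 26 to 21 bases before its start site 2, and none of the motifs was found before start site 1. No motif of the search was in the Sparc window. Of all 32851 promoters of this length, 12.4% held the TATA box core, 32.7% the GC box core, 6.75% the AP-1 site, 12.6% the TEAD site, 1.47% the CArG box and 1.55% the CRE. A match is a description of letters only.

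Fn1 encodes fibronectin, a large glycoprotein that links cells to collagen through integrins. It lies on chromosome 1 at 71585520 to 71653200 (GRCm38), and its position, like those of the other genes, is from GENCODE M21. It had 4865, 4837 and 4672 CPM in B6 and 5435, 5254 and 5271 in D2, compared with 3246, 3324 and 3298 in B6-13D2 and 3595, 3506 and 3377 in D2-13B6. The libraries formed an upper pair of groups, D2 just above B6, and a lower pair, D2-13B6 just above B6-13D2, with no overlap. The log2 fold change was 0.15 (SE 0.0305) in D2 against B6, -0.54 (SE 0.0306) in B6-13D2 against B6, and it was -0.61 (SE 0.0306) in D2-13B6 against D2. In linear terms B6-13D2 held 0.687 times the B6 level, the highest such share of the 9 genes. Exons of Fn1 share 292 bases with the antisense gene Apol7d. The 11 member values that were not whole numbers, of 108 in all, belonged to Fn1, so some of its reads were divided between loci, and how many was not measured.

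Thbs1 encodes thrombospondin 1, a matricellular protein known to bind cell surface receptors and to release active TGF-beta. Its place is chromosome 2 at 118111876 to 118127133, and it shares 208 exon bases with the lincRNA Gm29233 on the other strand. Its levels were 4556, 4668 and 4328 CPM in B6 and 7115, 6843 and 6489 in D2, compared with 1352, 1346 and 1321 in B6-13D2 and 2751, 2743 and 2603 in D2-13B6. The 4 groups lay far apart, with every B6-13D2 library under every D2-13B6 library. Thbs1 had the lowest fold change of the 9 genes in both congenic comparisons, -1.75 (SE 0.0383) in B6-13D2 against B6, then -1.34 (SE 0.0378) for D2-13B6 against D2. In D2 against B6 the log2 fold change was 0.59 (SE 0.0372). Per kilobase of exon, Thbs1 was also the gene with the highest level of the 9 in B6, D2 and D2-13B6, but not in B6-13D2. It ranked at place 21 in D2 among 21474 protein coding genes and at place 159 in B6-13D2. In B6-13D2 Fn1, at 282 CPM per kilobase, and Sparc, at 242, stood above Thbs1, at 221.

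Sparc encodes SPARC or osteonectin, a matricellular protein that binds collagen and is also known from the basement membrane of the early embryo. The gene is on chromosome 11 at 55394500 to 55423183 and overlaps no other annotated exon. The libraries had 1676, 1729 and 1665 CPM in B6 and 2263, 2224 and 2101 in D2, compared with 897, 948 and 900 in B6-13D2 and 1354, 1367 and 1360 in D2-13B6. The order of the groups was that of Thbs1, but the steps between them were smaller. B6-13D2 held 0.541 times the B6 level, a log2 fold change of -0.89 (SE 0.0341), and D2 held 1.30 times it, 0.38 (SE 0.0338). The log2 fold change in D2-13B6 against D2 was -0.69 (SE 0.0339). Sparc and Timp2 both lie on chromosome 11, whose 1386 tested genes had a median log2 fold change of 0.39 in D2-13B6 against D2, compared with -0.03 for the other autosomes. The genes within 2 Mb of Sparc had a median of 0.33 in that comparison, and so had those around Timp2. Whether that chromosome-wide shift has a part in the levels of Sparc or Timp2 was not tested.

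Postn encodes periostin, a matricellular protein that promotes collagen assembly and cell attachment. It lies on chromosome 3 at 54361109 to 54391037, and its level was the lowest of the 9 genes per kilobase in every group. It had 80.7, 85.6 and 79.1 CPM in B6 and 177, 183 and 185 in D2, compared with 28.1, 31.4 and 26.3 in B6-13D2 and 108, 111 and 116 in D2-13B6. Both groups of the D2 background lay above both groups of the B6 background, which held for none of the other 8 genes. The log2 fold change of 1.15 (SE 0.0488) in D2 against B6 was the highest of the 9 genes. In B6-13D2 against B6 it was -1.51 (SE 0.0553) and in D2-13B6 against D2 -0.70 (SE 0.0469). The mean of D2 was 6.34 times that of B6-13D2, the widest span of the 9 genes.

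Fbln2 encodes fibulin 2, a glycoprotein that binds fibronectin and elastic fibre proteins. The gene is on chromosome 6 at 91212455 to 91272540. Its levels were 1603, 1516 and 1553 CPM in B6 and 2408, 2363 and 2078 in D2, compared with 509, 540 and 508 in B6-13D2 and 1251, 1227 and 1191 in D2-13B6. The third D2 library stood below the other D2 libraries and still above all of B6. Log2 fold changes were 0.55 (SE 0.0463) in D2 against B6, -1.59 (SE 0.0475) in B6-13D2 against B6, then -0.90 (SE 0.0465) in D2-13B6 against D2.

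Bgn encodes biglycan, a small leucine-rich proteoglycan that decorates collagen fibrils. The gene is on chromosome X at 73483602 to 73495933. The libraries had 967, 1026 and 954 CPM in B6 and 1512, 1495 and 1528 in D2, compared with 305, 310 and 298 in B6-13D2 and 708, 716 and 689 in D2-13B6. Spread within a group was small beside the gaps between groups. Log2 fold changes were 0.62 (SE 0.0332) in D2 against B6, -1.69 (SE 0.0344) in B6-13D2 against B6, then -1.10 (SE 0.0335) in D2-13B6 against D2.

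Lox encodes lysyl oxidase, the enzyme that starts the crosslinking of collagen and elastin. It lies on chromosome 18 at 52516067 to 52529867 and shares 30 exon bases with an antisense gene, AC161119.1. It had 938, 953 and 921 CPM in B6 and 1449, 1455 and 1323 in D2, compared with 299, 301 and 295 in B6-13D2 and 814, 790 and 779 in D2-13B6. Among the 8 genes with the common order, Lox came closest to B6 in D2-13B6, at 0.847 times the B6 level. Its log2 fold changes were 0.59 (SE 0.0366) in D2 against B6, -1.65 (SE 0.0378) in B6-13D2 against B6, then -0.83 (SE 0.0366) in D2-13B6 against D2.

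Mmp2 encodes gelatinase A, a metalloproteinase that cuts denatured collagen and basement membrane collagen, and Timp2 encodes an inhibitor that blocks metalloproteinases and also takes part in the activation of the Mmp2 proenzyme. Mmp2 lies on chromosome 8 at 92827291 to 92853420 and Timp2 on chromosome 11 at 118301069 to 118355740. Mmp2 had 140, 135 and 137 CPM in B6 and 220, 212 and 200 in D2, compared with 47.0, 49.1 and 45.7 in B6-13D2 and 101, 101 and 100 in D2-13B6. Timp2 had 886, 929 and 767 CPM in B6 and 1379, 1327 and 1323 in D2, compared with 251, 277 and 253 in B6-13D2 and 639, 610 and 574 in D2-13B6. The protease and its inhibitor thus showed the same order of groups, and B6 replicate 3 was low for Timp2 only. The log2 fold changes of Mmp2 were 0.62 (SE 0.0381) in D2 against B6, -1.54 (SE 0.0415) in B6-13D2 against B6, then -1.07 (SE 0.0382) in D2-13B6 against D2. Those of Timp2 were 0.64 (SE 0.0576), -1.73 (SE 0.0597) and -1.14 (SE 0.0580) in the same comparisons. In counts of the same library, Mmp2 had 16.1 ± 1.73 per 100 counts of Timp2 in B6 (SD, n = 3) and 15.7 ± 0.488 in D2, compared with 18.2 ± 0.495 in B6-13D2 and 16.6 ± 0.821 in D2-13B6. The D2 and B6-13D2 libraries did not overlap in this ratio. B6 overlapped both, and D2-13B6 overlapped D2 but not B6-13D2.

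The ratios between groups were not the same for all 9 genes. In D2 against B6 the log2 fold changes ran from 0.15 for Fn1 to 1.15 for Postn, a range of 1.00. In B6-13D2 against B6 they ran from -1.75 for Thbs1 to -0.54 for Fn1, a range of 1.21. In D2-13B6 against D2 they ran from -1.34 for Thbs1 to -0.61 for Fn1, a range of 0.73. The standard errors of single values lay between 0.0305 and 0.0597 and measure only the spread between these libraries. As the genes were chosen with their levels known, the ranges are a description with no test. B6 and D2 each enter 2 of these comparisons, which are therefore not independent. Read from these values, 6 genes, Thbs1, Bgn, Timp2, Lox, Fbln2 and Mmp2, lay close together in 2 of the comparisons. They held 1.47 to 1.56 times the B6 level in D2 and 0.297 to 0.345 times it in B6-13D2. In D2-13B6 the same 6 genes spread from 0.597 times the B6 level for Thbs1 to 0.847 times for Lox. Fn1 and Sparc lay closest to 0 in D2 against B6 and in B6-13D2 against B6. In D2-13B6 against D2 Fn1 was at -0.61 and Sparc at -0.69, the latter within its error of Postn at -0.70.

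**Figure D2:**
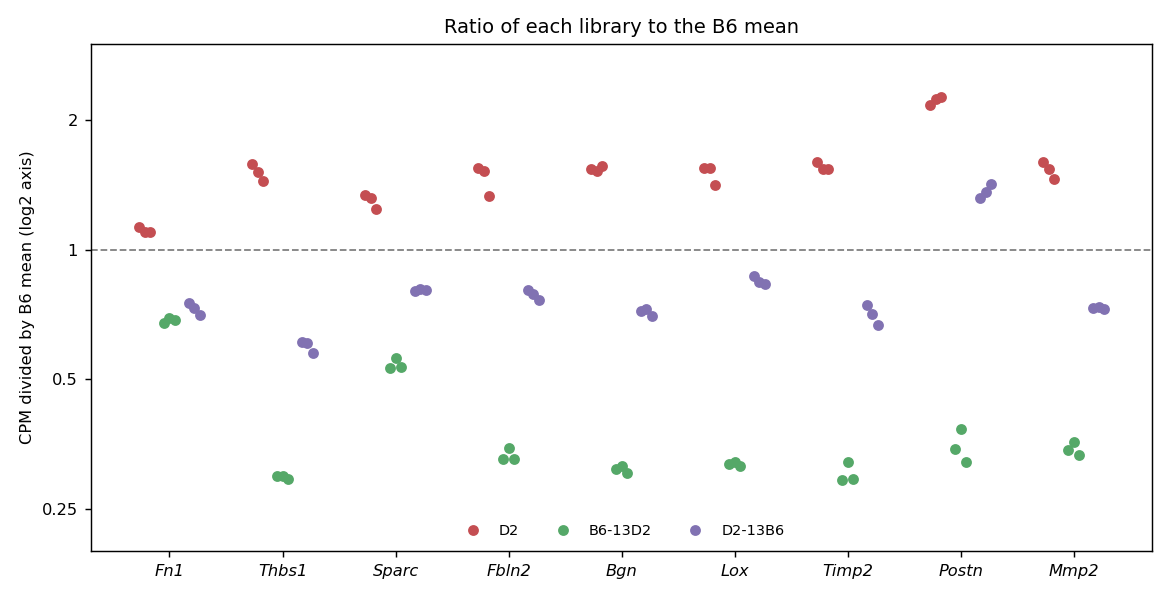
CPM of each D2, B6-13D2 and D2-13B6 library divided by the B6 mean (vertical axis, log2 scale) for the 9 genes. In B6-13D2, 6 genes lie between 0.297 and 0.345 and Postn at 0.350, while Sparc lies at 0.541 and Fn1 at 0.687. In D2-13B6, Postn is the gene above the B6 mean.

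The same levels can be given as ratios of 2 genes within a library, in which depth and scaling cancel. They restate the fold changes above with their spread over libraries and add no independent evidence. Per 100 counts of Thbs1, Fn1 had 106 ± 2.23 counts in B6 (SD, n = 3) and 78.1 ± 2.69 in D2, compared with 246 ± 4.87 in B6-13D2 and 129 ± 1.46 in D2-13B6. Sparc had 37.4 ± 0.901 per 100 counts of Thbs1 in B6 and 32.2 ± 0.376 in D2, compared with 68.3 ± 2.01 in B6-13D2 and 50.4 ± 1.60 in D2-13B6. Both ratios were therefore highest where Thbs1 was lowest. Fn1 and Sparc did not keep to one ratio either: per 100 counts of Sparc, Fn1 had 284 ± 5.83 in B6 and 242 ± 7.58 in D2, compared with 360 ± 7.96 in B6-13D2 and 257 ± 8.61 in D2-13B6. Bgn and Timp2 came closest to a fixed ratio. Timp2 had 87.5 ± 6.16 per 100 counts of Bgn in B6 and 88.8 ± 2.28 in D2, compared with 85.5 ± 3.55 in B6-13D2 and 86.3 ± 3.58 in D2-13B6, and there was overlap between all groups. For Lox per 100 counts of Fbln2 the values were 60.2 ± 2.34, 61.8 ± 1.76, 57.5 ± 1.57 and 65.0 ± 0.491 in the same order, and every D2-13B6 library was above all others. Bgn per 100 counts of Thbs1 stood at 21.7 ± 0.455, 22.2 ± 1.19 and 22.7 ± 0.261 in B6, D2 and B6-13D2, and at 26.1 ± 0.359 in D2-13B6, where again every library was above the rest.

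Markers of fibroblasts moved with the 9 genes. The list holds 12 genes, all of them detected, and one of them is Postn itself. Their summed level was 9590 to 10389 CPM in B6 and 14457 to 17271 in D2, compared with 3158 to 3248 in B6-13D2 and 7882 to 8203 in D2-13B6. Postn was chosen on its levels, so only the other 11 are counted here. By edgeR's quasi-likelihood test with Benjamini-Hochberg adjustment over all genes, all 11 were higher in D2 than in B6. The background there was 29.8% of genes. All 11 were lower in B6-13D2 than in B6 (background 32.9%), and all but Dcn were lower in D2-13B6 than in D2 (background 29.7%). Col1a1, a chain of collagen I, made up most of the sum, at 6428 CPM ± 348 in B6 and 10484 ± 925 in D2, compared with 2093 ± 37.5 in B6-13D2 and 5227 ± 99.3 in D2-13B6. The mesenchymal transcription factor gene Prrx1 had 159 CPM ± 4.68, 235 ± 8.10, 49.0 ± 1.30 and 118 ± 1.32 in the same order. Dcn and Lum, matrix proteoglycan genes typical of fibroblasts, were low, at 0.640 to 2.94 and 0.647 to 5.26 CPM in the group means. The 6 smooth muscle markers summed to 1886 to 2016 CPM in B6 and 2702 to 2956 in D2, compared with 549 to 556 in B6-13D2 and 1374 to 1386 in D2-13B6. Of these, 5 of 6 were higher in D2 than in B6, 5 of 6 lower in B6-13D2 than in B6, and 6 of 6 lower in D2-13B6 than in D2. The part of any fibroblast or smooth muscle RNA in the levels of the 9 genes was not tested beyond the ratios given here. Col1a1 lies on chromosome 11, and the part of that chromosome's shift in D2-13B6 against D2 in its level was not tested.

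The levels were also set against the 11 fibroblast markers other than Postn. Per 100 counts of those markers, Fn1 had 47.2, 50.9 and 49.0 counts in B6 and 31.8, 32.6 and 36.9 in D2, compared with 101, 104 and 105 in B6-13D2 and 44.4, 43.8 and 43.5 in D2-13B6. Sparc had 16.3, 18.2 and 17.5 in B6 and 13.2, 13.8 and 14.7 in D2, compared with 27.9, 29.7 and 28.8 in B6-13D2 and 16.7, 17.1 and 17.5 in D2-13B6. For both genes B6-13D2, the group with the lowest markers, stood above all other libraries, and D2, the group with the highest, stood below them. The highest group mean was 3.07 times the lowest for Fn1 and 2.07 times for Sparc. Postn had 0.838 ± 0.0595 in B6 and 1.15 ± 0.131 in D2, compared with 0.900 ± 0.0758 in B6-13D2 and 1.41 ± 0.0824 in D2-13B6, a span of 1.68 times. Thbs1 spanned 1.36 times, from 33.9 ± 0.390 in D2-13B6 to 46.2 ± 2.57 in B6. The other 5 genes spanned only 1.12 times for Lox, 1.13 for Fbln2, 1.14 for Bgn, 1.15 for Timp2 and 1.18 for Mmp2.

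**Figure D3:**
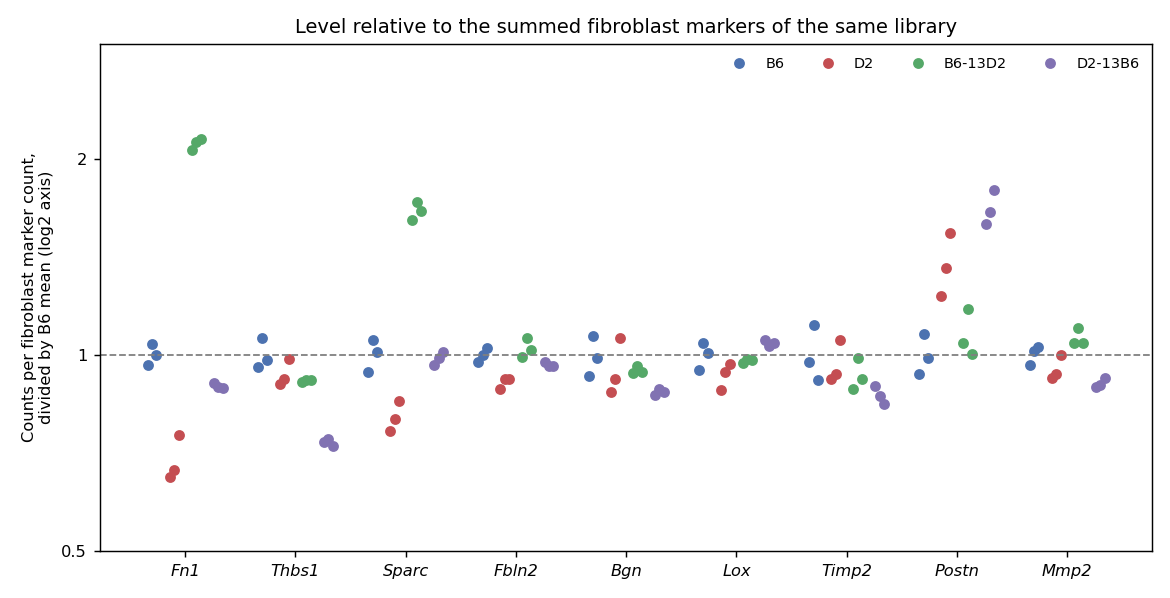
Counts of each gene per count of the 11 summed fibroblast markers of the same library, divided by the B6 mean (vertical axis, log2 scale). Points are libraries. Fn1 reaches 2.11 and Sparc 1.66 in B6-13D2, Postn 1.68 in D2-13B6, and Fbln2, Bgn, Lox, Timp2 and Mmp2 stay between 0.867 and 1.06 in the group means.

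The collagens in that list are matrix genes themselves, so other denominators were tried after these values were seen. Against the 8 fibroblast markers that are neither collagens nor Postn, the highest group was 2.75 times the lowest for Fn1, 1.86 for Sparc, 1.75 for Postn and 1.30 for Thbs1. The other 5 genes spanned 1.05 to 1.17 times. Against the 6 smooth muscle markers the spans were 3.20 for Fn1, 2.16 for Sparc, 1.93 for Postn and 1.24 for Thbs1, and 1.07 to 1.22 for the other 5. Fn1, Sparc and Postn thus had the widest spans with each of the 3 denominators. In all 3, the group with the highest ratio was B6-13D2 for Fn1 and Sparc and D2-13B6 for Postn.

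Differences between groups can also be set against each other. For each 100 CPM by which the 11 markers differed between D2 and B6, Fn1 differed by 8.74 CPM. Between B6-13D2 and B6 it differed by 22.7, and between D2-13B6 and D2 by 23.2. For Sparc the same 3 values were 8.36, 11.7 and 10.6, and for Thbs1 38, 48.1 and 52.2. Postn went the other way, with 1.65 between D2 and B6, against 0.805 and 0.886. Bgn had 8.76, 10.3 and 10.2, Timp2 7.97, 9.09 and 9.33, Fbln2 12, 15.7 and 13.5, Lox 7.79, 9.67 and 7.80, and Mmp2 1.21, 1.36 and 1.40. These values carry no error and no test, and B6 and D2 each enter more than one of them.

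Other cell types known to make some of these proteins were also read through their markers. Primitive and parietal endoderm, a source of SPARC and laminin in the early embryo, had 15 markers, which summed to 444 CPM in B6 and 688 in D2, compared with 221 in B6-13D2 and 465 in D2-13B6. Most of that came from the basement membrane collagen gene Col4a1, at 337, 551, 116 and 358 CPM. The laminin chain gene Lama1, the next highest of the list in B6, had another order: it was at 53.2, 63.6, 80.9 and 51.8 CPM in the same groups, highest in B6-13D2, where the 9 genes were lowest. The defining transcription factor genes Gata4, Gata6, Sox17 and Sox7 were between 0.370 and 3.46 CPM in the group means, and Foxa2 and Ttr were at or near 0. Of the 13 tested, 8 were higher and 1 lower in D2 than in B6, 2 higher and 7 lower in B6-13D2 than in B6, and 3 higher and 6 lower in D2-13B6 than in D2. Over all genes tested, 29.8% were higher and 30.3% lower in D2 than in B6, 25.4% higher and 32.9% lower in B6-13D2 than in B6, and 27.6% higher and 29.7% lower in D2-13B6 than in D2. This balance turned with the method that scales the libraries, and also moved with the filter. Of the genes called in B6-13D2 against B6, 43.5% were higher with TMM, the method used here, and 52.0% with RLE size factors. In D2 against B6 these shares were 49.6% and 56.7%, and 55.8% with a filter at a mean of 1 CPM. In D2-13B6 against D2 the share was 48.2%, and 42.2% with that filter. Macrophage markers had another order from the 9 genes, with 32.5 to 36.5 CPM in B6 and 70.6 to 76.2 in D2, compared with 46.1 to 51.3 in B6-13D2 and 110 to 120 in D2-13B6. Of 6 macrophage markers tested, 5 were higher in D2 than in B6, 2 were higher in B6-13D2 than in B6, and 4 were higher in D2-13B6 than in D2, with none lower. The count of 2 in B6-13D2 is near the share of all genes called higher there. The macrophage marker Lyz2, which encodes a lysozyme, was highest in D2-13B6 at 66.9 CPM ± 1.62, against 36.8 ± 0.404 in D2. Neural markers had the order of the 9 genes in their group means, with smaller steps: they summed to 110 to 114 CPM in B6 and 145 to 152 in D2, compared with 92.5 to 96.0 in B6-13D2 and 107 to 111 in D2-13B6, where B6 and D2-13B6 overlapped. Of the 6 neural markers, 5 were higher in D2 than in B6, 4 were lower and 1 higher in B6-13D2 than in B6, and 5 were lower in D2-13B6 than in D2. Mesoderm markers summed to 13.7 to 18.6 CPM in every library. Of 6 tested, 1 was higher and 1 lower in D2 than in B6. The comparison of B6-13D2 with B6 had 1 higher and 3 lower, and that of D2-13B6 with D2 had 2 higher and 1 lower. Except for the 3 lower in B6-13D2, these counts are near or below the shares of all genes called so. With only 6 genes, none of them is read as a result. Eomes made up most of the mesoderm sum in B6-13D2, at 14.2 CPM against 10.7 in B6, while Kdr was at 0.618 against 2.60. Trophoblast markers summed to 57.6 to 71.3 CPM in B6, D2 and D2-13B6 and to 86.2 to 90.7 in B6-13D2, where Tfap2c alone had 66.0 CPM. Of 6 tested, 2 were higher and 2 lower in D2 than in B6, 2 higher and 3 lower in B6-13D2 than in B6, and 4 higher and 1 lower in D2-13B6 than in D2. The counts of 2 are near the shares of all genes called so, and the trophoblast counts are not read as a result either. Krt8, a trophoblast keratin gene, was at 7.83 CPM in B6-13D2 against 11.7 in B6. Endothelial markers summed to 66.8 to 179 CPM, highest in D2-13B6 and most of it Pecam1, while Cdh5 and Emcn were at or near 0. Among 4 tested, 1 was higher and 3 lower in D2 than in B6, and likewise in B6-13D2 against B6. In D2-13B6 against D2, 2 were higher and none lower. Pecam1 rose by 0.62 on the log2 scale (SE 0.0529) in B6-13D2 against B6, while Tek, Tie1 and Kdr fell. Markers of pluripotent stem cells ran against the 9 genes in part: they summed to 5601 CPM in B6 and 3829 in D2, compared with 6444 in B6-13D2 and 4694 in D2-13B6, and Pou5f1 was at 518 to 797 CPM in every library. Of 10 pluripotency markers, 9 were lower in D2 than in B6, 9 were higher and 1 lower in B6-13D2 than in B6, and 8 were higher in D2-13B6 than in D2. The part of these cell types in the levels of the 9 genes was not tested.

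**Figure D4:**
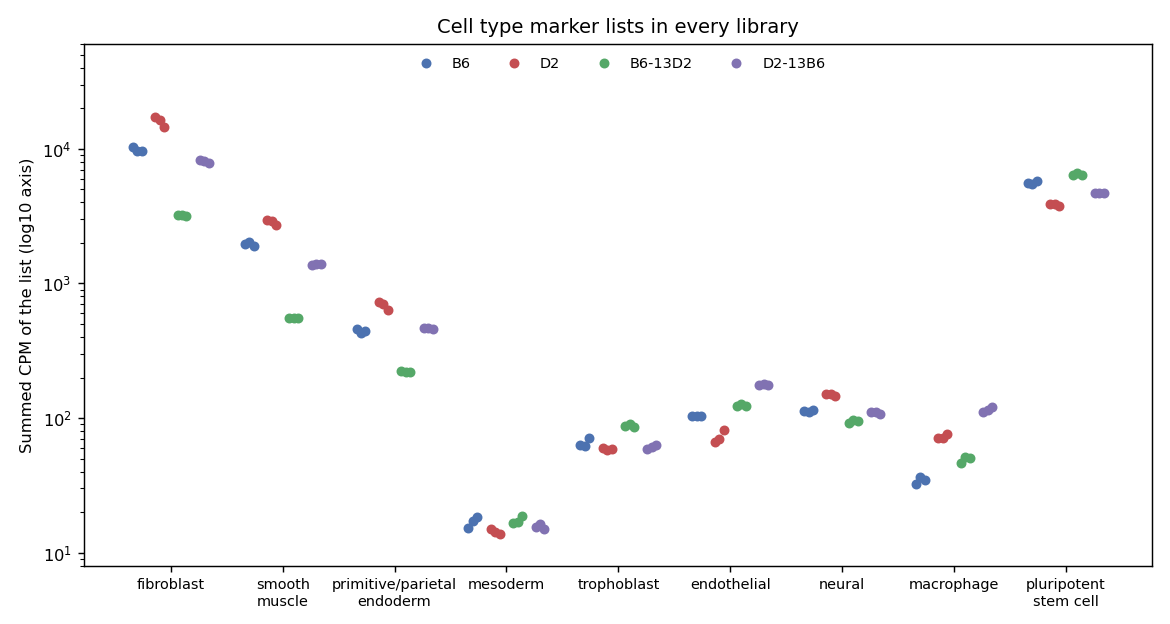
Summed CPM of each list of cell type markers in the 12 libraries (vertical axis, log10 scale). Fibroblast and smooth muscle markers follow the order of the matrix genes, neural markers follow it in their group means with smaller steps, macrophage markers are highest in D2-13B6 at 110 to 120 CPM, and pluripotent stem cell markers stay between 3767 and 6622 CPM.

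Other genes of the matrix, 165 in all and none of them among the 9, were taken as 9 lists by role, and 150 passed the filter. In D2 against B6, 108 of the 150 were called higher (72%, background 29.8%), 18 lower (background 30.3%) and 24 were not called, by edgeR's quasi-likelihood test with Benjamini-Hochberg adjusted p under 0.05. The median log2 fold change was 0.47, against 0.01 for all genes tested. In B6-13D2 against B6, 106 were lower (70.7%, background 32.9%), 14 higher (background 25.4%) and 30 not called, with a median of -0.98 against -0.04. In D2-13B6 against D2, 103 were lower (68.7%, background 29.7%), 17 higher (background 27.6%) and 30 not called, with a median of -0.61 against 0.00. Over both congenic groups against both parental groups, 108 were lower (background 33.4%) and 20 higher (background 31.1%), where 64.5% of all genes were called in either direction. The 9 genes had medians of 0.59, -1.59 and -0.90 in the first 3 of these comparisons. Fibroblast markers shared this direction, as given above, and their part in these counts was not tested.

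The closest relatives of Thbs1, Sparc and Postn are 21 tested matricellular glycoproteins, of which 15 were higher in D2 than in B6 and 2 lower. Against B6, 16 of the 21 fell and 3 rose in B6-13D2, and in D2-13B6 against D2 15 fell and 1 rose. Thbs2, a second thrombospondin, had 67.3 CPM ± 2.47 in B6 and 151 ± 6.51 in D2, compared with 18.4 ± 0.466 in B6-13D2 and 83.8 ± 1.56 in D2-13B6. The log2 fold change in D2 against B6 was 1.17 (SE 0.0404, edgeR adjusted p 1.1e-13). Ccn4, a WNT-inducible CCN family protein, fell most of the list in B6-13D2 against B6, with a log2 fold change of -2.22 (SE 0.0542). Smoc2, a SPARC-related calcium-binding protein, fell most in D2-13B6 against D2, with -1.62 (SE 0.0457). Its paralog Smoc1 moved the other way in both congenic comparisons, 0.37 (SE 0.0609) and 0.33 (SE 0.0590). Spock2, a SPARC-related proteoglycan, was lower in D2 than in B6, -0.85 (SE 0.128), and higher in B6-13D2 than in B6, 0.68 (SE 0.112).

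Of 17 tested fibulins, fibrillins and elastic fibre proteins, 14 were higher and 2 lower in D2 than in B6. Between B6-13D2 and B6, 15 fell and 2 rose, and in D2-13B6 against D2 14 fell and 2 rose. Fbln1, the nearest relative of Fbln2 in the list, went against its list. It had 64.2 CPM ± 1.83 in B6 and 34.6 ± 1.47 in D2, compared with 103 ± 4.65 in B6-13D2 and 39.7 ± 1.93 in D2-13B6, and its highest group was the lowest group of Fbln2. Its log2 fold changes were -0.90 (SE 0.0503) in D2 against B6 and 0.69 (SE 0.0459) in B6-13D2 against B6. Ltbp1, which tethers latent TGF-beta to fibrillin fibres, fell in B6-13D2 against B6, -1.79 (SE 0.0504). The elastin gene Eln was higher in D2 than in B6, 1.12 (SE 0.139).

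Among 13 tested matrix proteoglycans, the class of Bgn, 9 were higher and 2 lower in D2 than in B6, 8 lower and 1 higher in B6-13D2 than in B6, and 8 lower and 2 higher in D2-13B6 than in D2. Fmod, a small leucine-rich relative of Bgn, fell in B6-13D2 against B6, -1.79 (SE 0.109), and Aspn, another, fell in D2-13B6 against D2, -1.04 (SE 0.0672). Hspg2, the basement membrane proteoglycan perlecan, had a smaller change of -0.50 (SE 0.0388) in B6-13D2 against B6. Laminins and nidogens, the glycoproteins of basement membranes, were the most mixed of the lists: of 13 tested, 6 were higher and 4 lower in D2 than in B6, and 4 rose and 6 fell in B6-13D2 against B6. In D2-13B6 against D2, 3 rose and 7 fell. The 4 lower in D2 and the 4 that rose in B6-13D2 are near the shares of all genes called so, 30.3% and 25.4%. Lama4, a laminin chain of mesenchyme and vessels, fell in B6-13D2, -1.48 (SE 0.0440). Lama3, an epithelial chain, rose by 1.02 there (SE 0.0563). Counts of Lama3 were divided between loci in 5 of the 12 libraries.

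The 20 crosslinking and collagen-modifying enzymes, the class of Lox, gave the most one-sided counts among the larger lists. In D2 against B6, 19 were higher and 1 lower. None rose and 17 fell in B6-13D2 against B6, and none rose and 19 fell in D2-13B6 against D2. P4ha3, a collagen prolyl hydroxylase subunit, fell most in both, -1.68 (SE 0.0880) and -1.33 (SE 0.0686). Pcolce, an enhancer of procollagen processing, was the enzyme-list gene lower in D2 than in B6, -0.21 (SE 0.0440). P4hb, which also serves as protein disulfide isomerase, changed little, -0.40 (SE 0.0330) and -0.15 (SE 0.0328) in the congenic comparisons.

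Of the 16 tested metalloproteinases, the class of Mmp2, 8 were higher and 1 lower in D2 than in B6. In B6-13D2 against B6, 7 fell, 2 rose and 7 were not called, and in D2-13B6 against D2 8 fell and 8 were not called. Over all genes 32.9% fell and 25.4% rose in the first of these and 29.7% fell in the second. Mmp14, the membrane-bound protease that activates the Mmp2 proenzyme together with Timp2, had 221 CPM ± 4.55 in B6 and 341 ± 29.0 in D2, compared with 80.7 ± 2.00 in B6-13D2 and 191 ± 3.92 in D2-13B6. The log2 fold changes, 0.63 (SE 0.0473), -1.45 (SE 0.0501) and -0.84 (SE 0.0471), were near those of Mmp2 and Timp2 in D2 against B6. In both congenic comparisons Mmp14 lay closer to 0 than either. Mmp17 and Mmp11 rose in B6-13D2 against B6, by 0.48 (SE 0.0656) and 0.40 (SE 0.0585). All 5 tested protease inhibitors were higher in D2 than in B6, 4 fell in B6-13D2 against B6 and 5 fell in D2-13B6 against D2. Timp3, the relative of Timp2 bound to the matrix, went from 759 CPM ± 56.1 in B6 to 156 ± 4.10 in B6-13D2, and its log2 fold change was -2.28 (SE 0.0455). Its counts were divided between loci in 11 of the 12 libraries, so its level is uncertain. Timp1 fell by less, -1.03 (SE 0.0548).

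Among 29 tested matrix receptors, 19 were higher and 5 lower in D2 than in B6, 21 fell and 2 rose in B6-13D2 against B6, and 18 fell and 6 rose in D2-13B6 against D2. Ddr2, a collagen receptor of mesenchymal cells, fell by 1.94 on the log2 scale in B6-13D2 against B6 (SE 0.0566). Itga11, an integrin chain that binds collagen, fell by 1.84 in D2-13B6 against D2 (SE 0.0643). Itgb3, a chain of the integrin that binds fibronectin and vitronectin, and Cd36, a receptor of thrombospondin 1, rose there, by 0.92 (SE 0.0710) and 0.82 (SE 0.0766). Itgb7, an integrin chain of lymphocytes, was lower in D2 than in B6, -1.53 (SE 0.103), and higher in D2-13B6 than in D2, 0.69 (SE 0.106). The macrophage markers, as given above, were also highest in D2-13B6, and their part in Itgb3 and Cd36 was not tested. Itgb3, like P4hb above, lies on chromosome 11, whose tested genes had a median of 0.39 in D2-13B6 against D2. The part of that shift was not tested either. Of the 16 TGF-beta ligands, receptors and SMADs, 13 were higher and 1 lower in D2 than in B6, 12 fell and none rose in B6-13D2 against B6, and 9 fell and 3 rose in D2-13B6 against D2. Tgfb3, one of the ligands, fell by 1.93 (SE 0.0524) and by 1.43 (SE 0.0465) on the log2 scale in these congenic comparisons. Smad7, an inhibitor of the pathway, was the gene of that list lower in D2 than in B6, -0.26 (SE 0.0523).

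**Figure D5:**
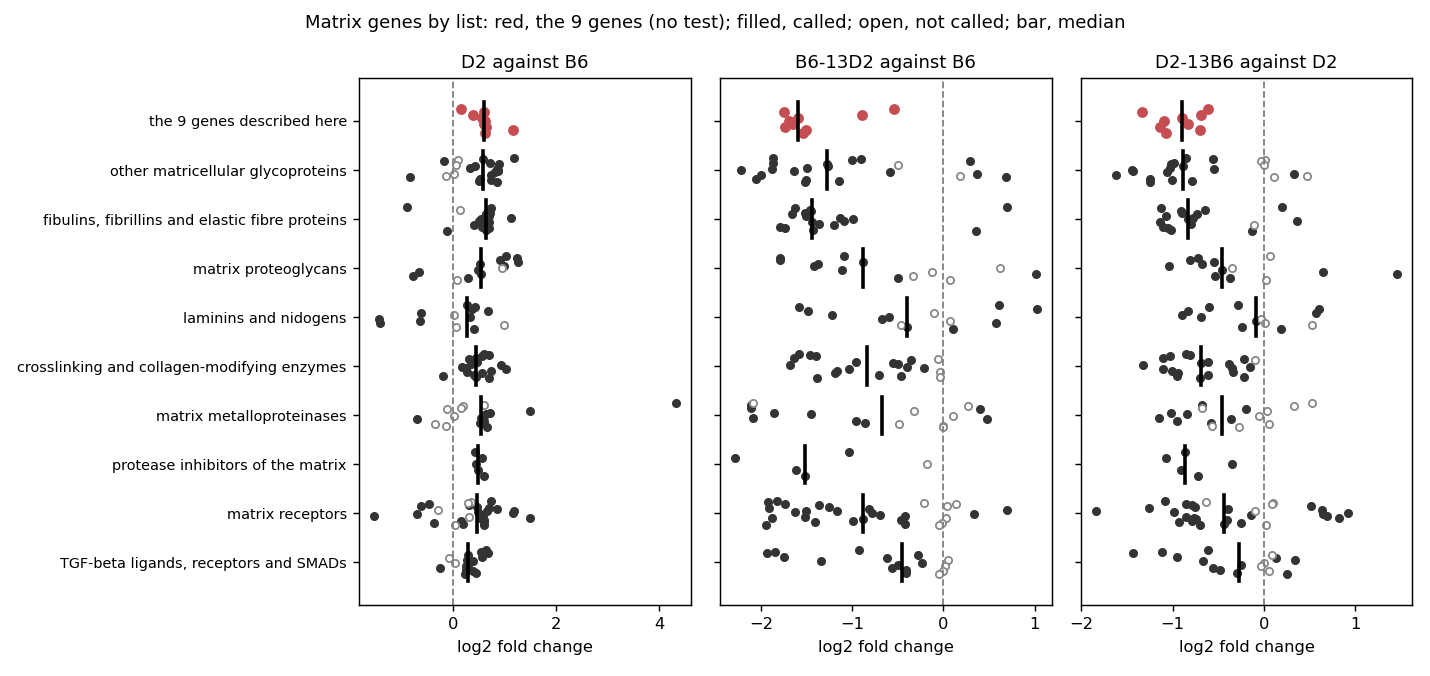
Log2 fold changes (horizontal axes) of the 9 genes (red, no test) and of the 150 related matrix genes by list, in 3 comparisons. Filled points were called by edgeR at an adjusted p under 0.05, open points were not, and bars are medians. Laminins straddle 0, while crosslinking enzymes lie almost wholly on 1 side.

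Fn1 and Sparc were set aside with their values known, so the bands of the other 7 genes are a description. These 7 lay between -1.75 and -1.51 in B6-13D2 against B6. That band held 16 of the 150 related genes (10.7%) and 2.38% of all genes tested. Related genes were mostly called lower there (70.7%, background 32.9%), so these shares are not read as a result. The same 7 genes spread more widely in the other comparisons, from 0.55 to 1.15 in D2 against B6 (34.7% of the related genes and 11.8% of all) and from -1.34 to -0.70 in D2-13B6 against D2 (38.7% and 8.78%). Genes most like each member were read from Pearson's r of log2(CPM + 1) over the 12 libraries, among 10815 protein coding genes with a mean of at least 5 CPM. These are descriptions over libraries of only 4 groups. Fn1 was most like Pafah2, with r = 0.9950. Sparc was most like Nptn, with r = 0.9985, and Serpinh1, the collagen chaperone, was the third most like it. Thbs1 was most like Nedd9 and Ccn1, a CCN family matricellular gene, each with r = 0.9986. The gene most like Fbln2 was Col1a2, with r = 0.9995, and the one most like Mmp2 was the intermediate filament gene Vim, with r = 0.9987. Bgn was most like Htr1b (0.9990), Lox most like Layn (0.9992) and Timp2 most like Ltbp1 (0.9981). For Postn the nearest was Ifit1, an interferon-induced gene, with r = 0.9964. Among the 9 genes themselves r ran from 0.699 for Postn with Fn1 to 0.998 for Timp2 with Bgn and for Mmp2 with Bgn.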

How the data were processed

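RNA was measured in 12 libraries, 3 in each of 4 groups, with groups and replicate numbers taken from the sample titles. The authors deposited expected counts, which are estimates and may be fractions, for each Ensembl gene ID in each library, and the file's title names EMASE, which divides reads between loci. Per the submitters' processing notes Bowtie 1.0.0, edgeR 3.34.1 and mm10 were used; their roles, the annotation, any filter and strand use are not given in the sources used here. Of all values 88.1% were whole to within 1e-06. Reads divided between near-identical loci, and overlapping genes on either strand, are uncertain.

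Symbols and positions came from GENCODE M21 (GRCm38) for 42462 of 43346 IDs; the other 884 held 0.361% of counts. Every column mapped to a library (0 were left out). Counts were rounded and fitted in R 4.3.3 with edgeR 4.0.16: filterByExpr with a minimum count of 10, TMM, a quasi-likelihood fit of 4 group means over 12 libraries, and Benjamini-Hochberg adjustment over 17148 genes within each contrast at 0.05. The contrasts compared D2 with B6, each congenic line with its background strain, and both congenic lines with both parental strains. The fit was tested on simulated counts. Alternatives were DESeq2 1.42.0, no filter, RLE size factors, fold changes past 1 on the log2 scale in either direction, a replicate block, a filter at a mean of 1 CPM, a fit of the compared libraries alone, and leaving out each library. Library pairs within a group had a chi-square between 1.94 and 7.98 for each degree of freedom, so none was taken for a repeat.

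The 9 genes, the lists of related genes and markers, and the tests were chosen with earlier results of these data known. Named related genes are, per list and contrast, the called genes with the highest and lowest log2 fold change at a mean of at least 5 CPM; marker genes, those with at least 1 CPM in a group and the defining ones below it; and the 3 genes most like each of the 9. The ratios to markers and between genes were chosen after the values were seen. Of the related genes that the rule names, 1 is not reported here.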

Additional observations from a re-analysis of the deposited data

Results flagged for a closer look

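D2 alleles in the chromosome 13 segment went with opposite changes on the B6 and D2 backgrounds. The labels give the congenic segments different boundary markers, so they may not be the same stretch. An effect here is a difference between groups, and a strain and its line cannot be told apart. For all 9 genes every B6-13D2 library was lower than every B6 library, while every D2 library was higher than every D2-13B6 library. Over all genes tested, 35.2% were without overlap in this direction in the first comparison and 32.2% in the second. The share for both at once is not given here, and the count of 9 follows from how the genes were chosen. The effect of D2 alleles on the B6 background minus that on the D2 background was, on the log2 scale, -1.15 for Fn1, -3.09 for Thbs1, -1.58 for Sparc, -2.49 for Fbln2, -2.79 for Bgn, -2.48 for Lox, -2.87 for Timp2, -2.21 for Postn and -2.60 for Mmp2. The difference was not tested for these genes, because they were chosen on their levels.

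Of the 150 related matrix genes tested, 128 (85.3%) differed between backgrounds in the same quantity by edgeR's quasi-likelihood test with Benjamini-Hochberg adjustment, where 64.5% of all genes were called. Those reported by name were picked for the highest or lowest fold changes, also in the contrasts that make up this quantity, so their values are a description and their number is not read as a result. Below -2.5 lay Ccn4 -3.67, Smoc2 -3.62, Timp3 -3.36, Tgfb3 -3.35, Itga11 -3.33, P4ha3 -3.01, Ltbp1 -2.90, Thbs2 -2.73, Ddr2 -2.64, Fmod -2.61 and Mfap2 -2.58. Between -2.5 and -1.5 lay Aspn -2.46, Lama4 -2.31, Mmp14 -2.29, Serpine2 -2.24, Lama2 -2.18, Lamb1 -2.12, Eln -1.91, Mmp19 -1.91 and Timp1 -1.89. Counts were divided between loci in 12 of the 12 libraries for Mmp19, in 11 for Timp3 and in 5 for Lama3, so these values are uncertain. Closer to 0 lay Prelp -1.43, Pcolce -1.42, Smad7 -1.13, Hspg2 -0.87, P3h1 -0.56, P4hb -0.55, Reck -0.53 and Smad2 -0.23. Those above 0 were Lama3 1.62, Itgb4 0.98, Fbln1 0.89, Cd36 0.85, Spock2 0.79, Smoc1 0.70, Acan 0.53, Eng 0.39 and Mmp11 0.20, the last with an adjusted p of 0.0419 that several alternatives moved past 0.05. The quantity equals both congenic groups minus both parental groups, so it also holds anything that all congenic libraries share, and the 2 cannot be told apart.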

How the results depend on the processing

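With fold changes past 1 on the log2 scale in either direction, 1937 genes were called for D2 against B6, 2478 for B6-13D2 against B6, 1537 in D2-13B6 against D2 and 4392 in the congenic against parental contrast. Of the related genes this left 14, 74 and 30 in the first 3. Other alternatives changed no count over all genes or over the related genes by over 1.5 times and reversed none of the values compared. The balance of directions over all genes did turn: with RLE size factors 5834 genes were higher and 4448 lower in D2 against B6, 5340 and 4935 in B6-13D2 against B6, and 5931 and 5280 in the congenic against parental contrast, and DESeq2 moved it alike. The filter at a mean of 1 CPM moved this balance as well, to 5267 higher and 4175 lower in D2 against B6. In D2-13B6 against D2 that filter gave 3872 higher and 5310 lower, against 4729 and 5092 in the main fit. For the related genes the counts were 112 higher and 17 lower, then 18 and 106, then 22 and 106 under RLE. Of 972 counts for single lists, 5 moved by more, all for cell type markers. The log2 fold changes of the 9 genes moved by at most 0.078 over 639 values, and RLE size factors moved the median of all genes by at most 0.0647. Of 2609 values of the named related genes, 9 lost their call: Smad2 in the congenic against parental contrast under DESeq2, Mmp11 in D2-13B6 against D2 without D2 replicate 2, and Mmp11 in the congenic against parental contrast with the replicate block and without B6 replicate 2, D2 replicate 3, B6-13D2 replicate 2 or any of the D2-13B6 libraries.

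Same-numbered libraries had a mean correlation of deviations of -0.007 over 18 pairs (-0.161 to 0.098), and 4 of 12 libraries correlated best with their own number, so the numbers do not pair cultures. With the replicate block 10167, 9911, 9664 and 10966 genes and 125, 121, 119 and 127 related genes were called, and the 9 genes moved by at most 0.004. The count of macrophage markers called in B6-13D2 against B6 went from 2 to 1 without B6 replicate 1 or 3 or without B6-13D2 replicate 2 or 3. The count of mesoderm markers called in D2-13B6 against D2 went from 3 to 1 with the filter at a mean of 1 CPM, which left 3 of them tested. Depth does not limit the 9 genes: each had at least 698 counts in every library.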

Other observations

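Within groups the 9 genes often had their extremes in one library. B6 replicate 3, the library with another line name, was lowest of its group for 7 of the 9 and highest for 0. B6-13D2 replicate 2 was highest for 8, D2-13B6 replicate 3 lowest for 7, and D2 replicate 3 lowest for 6. Of the genes near Lox, 10 tested within 2 Mb had a median log2 fold change of -0.59 in B6-13D2 against B6, with -0.41 for D2-13B6 against D2. The genes within 2 Mb of Thbs1 had medians of 0.12 and 0.20, those near Fn1 0.23 and 0.00.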
